A study of Mus musculus with 17 samples.

Results

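The genes described here are the T cell coreceptors and the factors that set which of them is expressed: Cd8a and Cd8b1, Cd4, Runx3 and Zbtb7b. They were taken by symbol, each matching 1 Entrez gene identifier, and are 5 of 27179 identifiers in a table of RNA sequencing reads counted per gene. The 17 libraries came from double-negative (DN) thymocytes of C57BL/6 mice, wild-type or Lmo2-transgenic. Lmo2 encodes a bridging protein of blood progenitors that is normally silenced as thymocytes commit to the T lineage. Young DN2 had 2 wild-type and 3 Lmo2-transgenic libraries, all from mice of 2.5 weeks. Young DN3a had 3 libraries of each genotype, all from mice of 2.5 weeks except wild-type replicate 3 at 3 weeks. Old DN3a had 3 wild-type libraries, replicate 1 at 10 weeks and replicates 2 and 3 at 8 weeks. It also had 3 Lmo2-transgenic libraries, replicate 1 at 6 weeks and replicates 2 and 3 at 10 weeks. Males gave replicate 2 of both wild-type young groups, replicate 3 of transgenic DN2 and replicate 1 of transgenic young DN3a. All other libraries came from females. Names of the libraries begin with the letter a or b, whose meaning is not given. The labels also give neither the promoter of the transgene nor the markers used for sorting. A further young wild-type DN2 library that the design text counts is not analysed here.

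CD8 is a dimer of the proteins encoded by Cd8a and Cd8b1, and CD4 is a single chain. Each binds a class of MHC molecule and brings the kinase LCK to the T cell receptor. Double-negative thymocytes are defined by the lack of both proteins on the surface, and double positive thymocytes, a stage after beta selection, carry both. RUNX3 later silences Cd4 and supports Cd8 expression in cytotoxic T cells. ThPOK, encoded by Zbtb7b, opposes it in helper T cells.

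Libraries held 7183303 to 11360308 counted reads, so that 1 read equalled 0.0880 to 0.139 CPM (read counts scaled to the same library total). Lmo2 stood at 20.2 to 164 CPM in the 9 transgenic libraries and at 0 to 0.872 CPM in the 8 wild-type ones. Il2ra, which encodes the CD25 chain of DN2 and DN3 cells, stood above 99.0% of tested genes per length in every group. Cd44 stood at 19.1 to 51.5 CPM in DN2 and 1.28 to 10.8 CPM in DN3a libraries. Ptcra, the pre-T cell receptor alpha gene of DN3 cells, stood at 108 to 136 CPM in wild-type but 1.57 to 6.46 CPM in transgenic DN2, and at 200.1 to 374 against 16.8 to 27.01 CPM in old DN3a. Of 11 DN2 and DN3 markers, transgenic cells had 2 higher and 4 lower in DN2, 1 and 5 in young DN3a, and 1 and 7 in old DN3a, by the edgeR test described below. Il2ra was among those lower in old DN3a (-0.91 ± 0.17), and Kit was higher in all 3 settings. Over all genes tested, 13.3% were called higher and 12.0% lower in DN2, 4.70 and 5.16% in young DN3a, and 14.9 and 15.7% in old DN3a. Replicate 1 of wild-type DN2 had reads in 13028 genes, and each other library in 14447 to 15680. An unnamed feature took 0.306 to 16.6% of reads, above 8% in transgenic DN2 replicates 2 and 3, transgenic young DN3a replicate 1 and wild-type old DN3a replicate 1. Member calls that were lost without these libraries are given with their values below, while genes other than the members were tested with all libraries only. Mitochondrial reads also moved with genotype in DN2, at 12.2 and 13.4% in wild-type and 1.96 to 3.75% in transgenic libraries, and overlapped in DN3a at each age.

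Cd8a (Entrez 12525) and Cd8b1 (Entrez 12526) lie on the plus strand of chromosome 6, at 71373427-71379173 and 71322788-71337494 (GRCm38, GENCODE). Their annotated ends are 35935 bases apart in RefSeq. Cd4 (Entrez 12504) lies on the minus strand of the same chromosome at 124864692-124888221. Runx3 (Entrez 12399) lies on chromosome 4, plus strand, at 135120652-135177990. Zbtb7b (Entrez 22724) lies on chromosome 3, minus strand, at 89377644-89394776. Its exons overlap those of Gm15417 on the opposite strand by 116 bases, and the strand of the libraries is not given. Exons of the other members overlap no other gene.

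Cd8a, the chain that binds LCK, was a low transcript in wild-type double-negative cells and a middling one in transgenic DN3a. Wild-type old DN3a libraries held 7, 9 and 3 Cd8a reads, or 0.837, 0.981 and 0.355 CPM. Transgenic old DN3a libraries held 722, 234 and 344 reads, or 75.6, 21.7 and 34.8 CPM. Every transgenic library was above every wild-type one. In young DN3a, wild-type libraries stood at 3.42, 1.49 and 2.46 CPM. Transgenic young DN3a libraries stood at 23.4, 39.0 and 53.4 CPM, again with no overlap. In DN2 the genotypes overlapped. Wild-type DN2 stood at 7.57 and 2.26 CPM, transgenic DN2 at 10.04, 9.88 and 1.69 CPM.

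Cd8b1, the chain that pairs with CD8 alpha on thymocytes and cytotoxic T cells, followed the same order of groups except for the highest pair. Wild-type old DN3a libraries held 10, 1 and 1 reads, or 1.195, 0.109 and 0.118 CPM. Transgenic old DN3a libraries stood at 32.4, 6.39 and 6.78 CPM, replicate 1 far above the others. Transgenic young DN3a libraries stood at 16.8, 22.3 and 26.0 CPM against 1.33, 1.91 and 2.07 CPM in wild-type. In DN2, wild-type libraries stood at 0.968 and 2.67 CPM and transgenic ones at 4.18, 4.32 and 0.964 CPM. The ranges of the genotypes parted in both DN3a ages and overlapped in DN2.

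**Figure D1:**
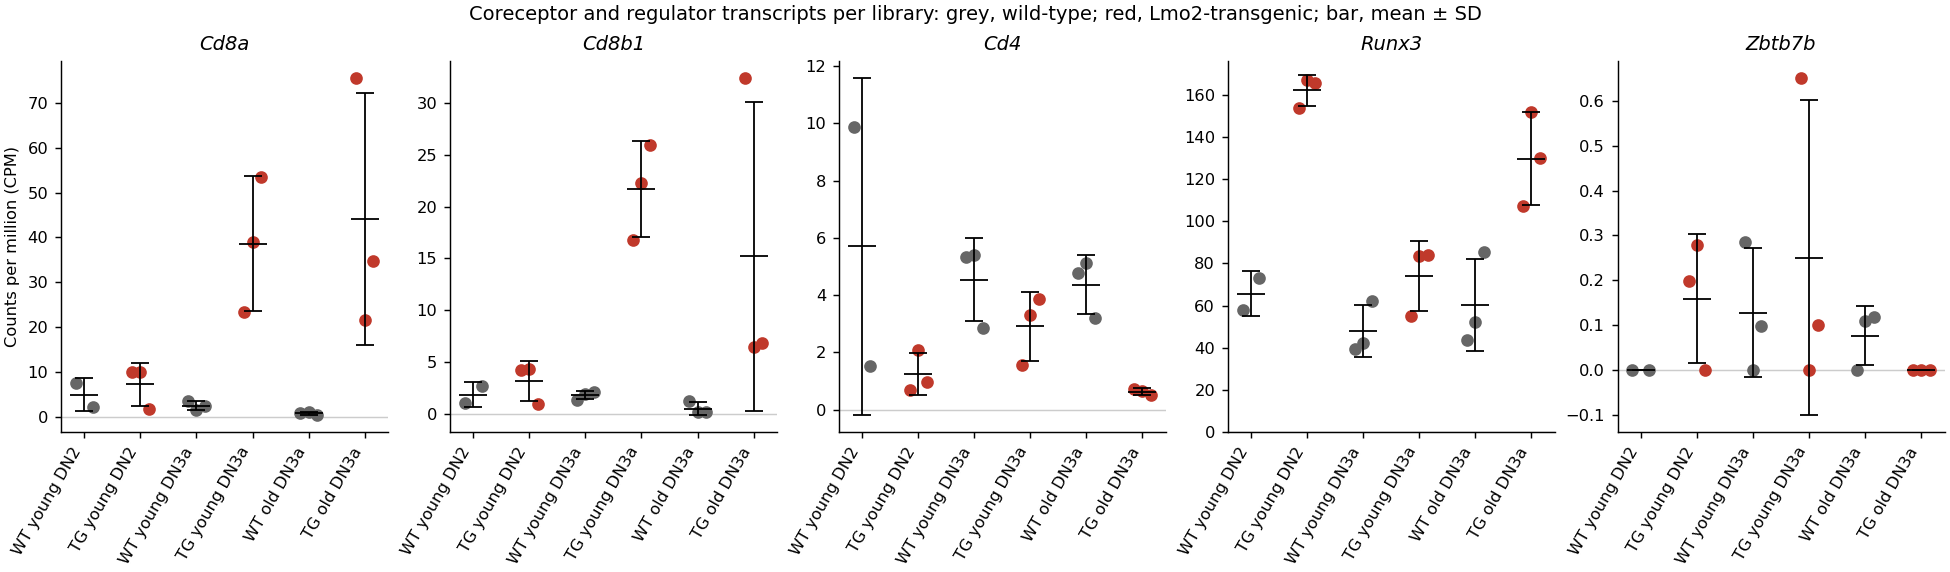
CPM of the 5 genes in each of the 17 libraries, by group. Points are libraries, grey for wild-type and red for Lmo2-transgenic, and bars give the mean and SD. Cd8a and Cd8b1 are highest in both transgenic DN3a groups, Runx3 in transgenic DN2, and Zbtb7b reaches no more than 0.651 CPM.

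Ordered by mean, Cd8a ran from transgenic old DN3a (44.0 ± 28.1 CPM, SD, n = 3) and transgenic young DN3a (38.6 ± 14.98) to transgenic DN2 (7.20 ± 4.78). Below these came wild-type DN2 (4.91 ± 3.76, n = 2), wild-type young DN3a (2.46 ± 0.967) and wild-type old DN3a (0.724 ± 0.328). Ranges of neighbours in this order did not overlap at 2 steps, between transgenic young DN3a and transgenic DN2 and between the wild-type DN3a ages. For Cd8b1 the means were 21.7 ± 4.63 CPM in transgenic young DN3a, 15.2 ± 14.9 in transgenic old DN3a and 3.15 ± 1.90 in transgenic DN2. They were 1.82 ± 1.2003 in wild-type DN2, 1.77 ± 0.390 in wild-type young DN3a and 0.474 ± 0.625 in wild-type old DN3a. Here too the ranges parted below the transgenic DN3a groups and between the wild-type DN3a ages. Between the wild-type ages the edgeR test described below called neither gene (adjusted p = 0.729 for Cd8a and 0.731 for Cd8b1). The share of all genes with parted ranges was not counted.

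Per length, Cd8a reached the middle of the expressed genes in transgenic DN3a. In CPM per kilobase of counted length (RPKM) it stood above 55.4% of tested genes in transgenic young and 56.8% in transgenic old DN3a. In wild-type it stood above 13.1% in young and 5.22% in old DN3a. The percentages for Cd8b1 were 61.4 and 50.01% in transgenic and 16.9 and 7.08% in wild-type young and old DN3a. Set against Il2ra per length in the same library, Cd8a came to 1.71 to 3.90% in transgenic young and 2.32 to 7.41% in transgenic old DN3a. In wild-type DN3a it came to 0.0980 to 0.240% in young and 0.0171 to 0.0540% in old mice. Il2ra itself was lowest in transgenic old DN3a, which raises the percentages there. It averaged 1424 ± 93.2 CPM, against 2712 ± 193 in wild-type old and 1919 ± 38.5 in transgenic young DN3a. In these bulk samples, a few cells with much of a transcript and many cells with little of it cannot be told apart.

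The fit over all genes asked how the transgene shifts each member at each stage and age. Differences are log2 fold changes ± SE from edgeR's quasi-likelihood test, called where the p adjusted by Benjamini-Hochberg over 13534 genes was under 0.05. Zbtb7b had too few reads to be tested. The labels name a different mouse for each library of a group, and 5 young mice gave both stages.

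In old DN3a, Cd8a rose by 5.88 ± 0.76 in transgenic cells (adjusted p = 3.51e-05), a 58.9-fold fitted difference. Cd8b1 rose by 4.95 ± 0.83 (adjusted p = 0.00028). Runx3 rose by 1.13 ± 0.22 (adjusted p = 0.000743) and Cd4 fell (-2.77 ± 0.65, adjusted p = 0.00288). All 4 tested members were thus called, 3 higher and 1 lower. Of all genes tested 30.6% were called in old DN3a, 14.9% higher and 15.7% lower. The Cd8b1 value leans on single libraries: it was 6.92 without wild-type old replicate 1, which holds 10 of 12 wild-type reads, and 3.81 without transgenic old replicate 1.

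In young DN3a, Cd8a rose by 4.11 ± 0.65 (adjusted p = 0.000733), a 17.3-fold difference, and Cd8b1 by 3.78 ± 0.71 (adjusted p = 0.00217). Runx3 rose by 0.80 ± 0.22 (adjusted p = 0.0267). Cd4 was not called, at -0.47 ± 0.57 (adjusted p = 0.673). Of the 4 tested members 3 were called, all higher. Among all genes 9.86% were called, 4.70% higher and 5.16% lower. The Runx3 call was lost without wild-type replicate 1 or 2, without transgenic replicate 2 or 3, without the male mice (adjusted p = 0.144) and with the unnamed feature as covariate (adjusted p = 0.0574). The difference itself was 0.68 to 0.84 in these fits.

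In young DN2, neither CD8 gene passed: Cd8a moved by 0.61 ± 0.68 (adjusted p = 0.537) and Cd8b1 by 0.90 ± 0.81 (adjusted p = 0.438). Runx3 rose by 1.41 ± 0.26 (adjusted p = 0.000616) and Cd4 fell (-2.11 ± 0.65, adjusted p = 0.0235). The share of all genes called was 25.3%, 13.3% higher and 12.0% lower, against 2 of 4 tested members. Without wild-type DN2 replicate 1 the Cd4 difference was -0.20 (adjusted p = 0.891), without wild-type replicate 2 it was -2.90, and without transgenic replicate 2 it was -2.76. Its call was also lost without transgenic replicate 1 (adjusted p = 0.0715) or 3 (0.0832), under limma voom (-1.45, 0.0801), with only the groups compared (-2.10, 0.124), with the replicate block (-1.96, 0.0529), with the unnamed feature as covariate (-1.58, 0.282) and without the libraries rich in the unnamed feature (-3.09, 0.0672).

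**Figure D2:**
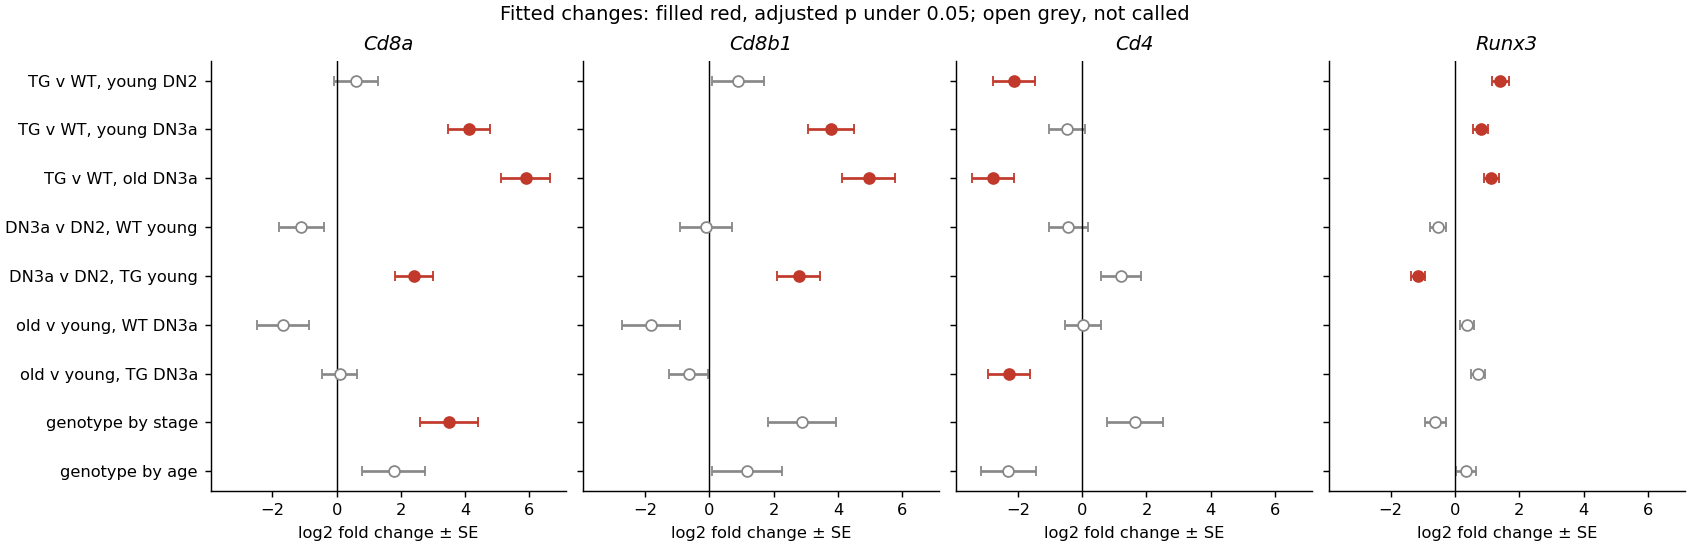
Log2 fold changes of the 4 tested members in 9 comparisons, with standard errors. Filled red points have an adjusted p under 0.05. Cd8a and Cd8b1 lie to the right in transgenic against wild-type DN3a at both ages (4.11 and 5.88 for Cd8a), and Cd4 lies to the left in old DN3a (-2.77).

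From DN2 to DN3a, the CD8 genes rose in transgenic mice. In transgenic young cells Cd8a rose by 2.41 ± 0.59 (adjusted p = 0.00716) and Cd8b1 by 2.78 ± 0.68 (adjusted p = 0.00586), while Runx3 fell (-1.15 ± 0.22, adjusted p = 0.000728). Cd4 moved by 1.2004 (adjusted p = 0.169). These are 3 of 4 tested members, against 25.9% of all genes. None of the 3 calls held without the libraries rich in the unnamed feature, a fit that keeps 1 transgenic DN2 library. The differences there were 2.26 for Cd8a (adjusted p = 0.0992), 2.59 for Cd8b1 (0.0734) and -0.82 for Runx3 (0.0964), and Cd8b1 was also not called without male mice (2.44, 0.0696).

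In wild-type mice the same step called 0 of the 4 members with edgeR, against 6.35% of all genes. DESeq2 and limma voom also called 0, and 1 had an unadjusted p under 0.05 in edgeR. Cd8a moved by -1.09, Cd8b1 by -0.10, Cd4 by -0.43 and Runx3 by -0.53 (adjusted p = 0.205). The difference between the genotypes in this step was tested itself, and 1 member passed: Cd8a, at 3.50 ± 0.91 (adjusted p = 0.0136), against 20.9% of all genes. Without wild-type DN2 replicate 1 it was 2.31 (adjusted p = 0.183), without replicate 2 it was 4.11, and without the libraries rich in the unnamed feature it was 3.36 (adjusted p = 0.0636). For Cd8b1 the value was 2.88 ± 1.05 and was not called (adjusted p = 0.0616). With each mouse as a block it was 3.03, and the adjusted p of 0.00821 there was the lowest of the alternatives. Over all alternatives the Cd8b1 value ran from 1.73 to 3.41.

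Of the young mice, 5 gave both a DN2 and a DN3a library. Cd8a in the 3 transgenic mice was 3.88-, 5.40- and 13.9-fold higher in DN3a than in DN2. In the 2 wild-type mice the ratio was 0.452 and 0.659. Cd8b1 was 5.34-, 6.03- and 17.4-fold higher in the transgenic mice, with ratios of 1.37 and 0.717 in the wild-type ones. The widest transgenic ratio of both genes came from the male mouse whose DN2 library, replicate 3, held 14 Cd8a and 8 Cd8b1 reads. Runx3 was lower in DN3a in all 5 mice, with ratios of 0.333 to 0.681.

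**Figure D3:**
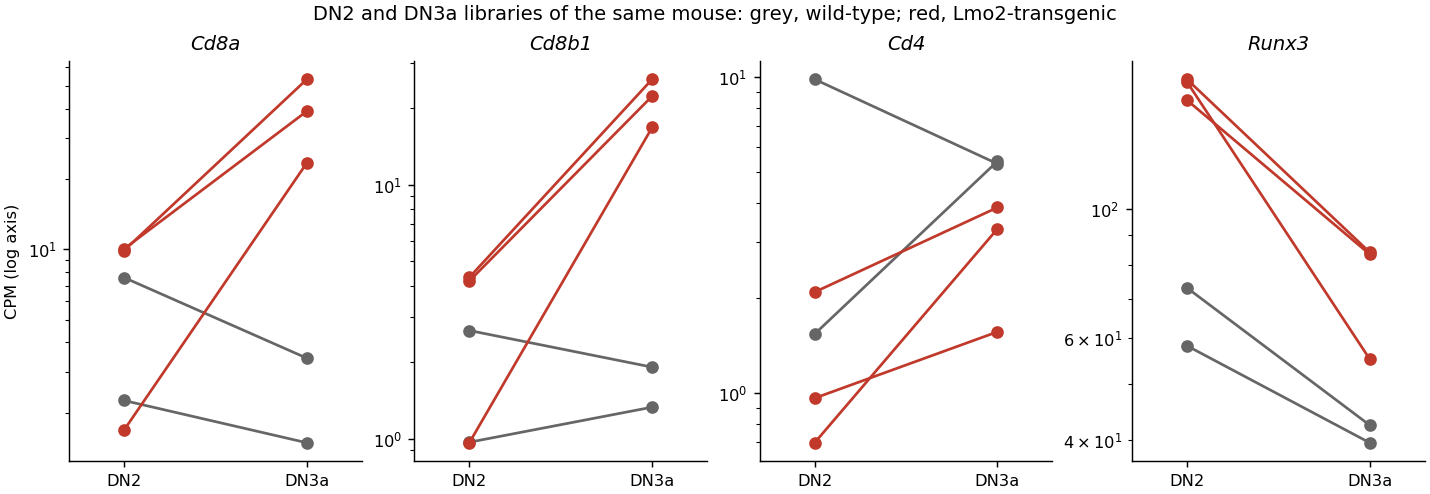
CPM of 4 members in the DN2 and DN3a libraries of the same mouse, on log axes. Each line is a mouse, grey for 2 wild-type and red for 3 Lmo2-transgenic mice. Lines for Cd8a and Cd8b1 rise steeply in the transgenic mice, and those for Runx3 fall in all 5.

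The comparison of old with young DN3a asks what age changes, but sex and library letter changed with age in part. All old libraries came from females, while replicate 2 of wild-type and replicate 1 of transgenic young DN3a came from males. In transgenic cells the young libraries all carry letter a, and old replicates 2 and 3 carry letter b. Age, sex and letter were thus not fully separated here. In wild-type cells 0 of 4 members passed with edgeR, where 0.244% of all genes were called. DESeq2 and limma voom called 0, and unadjusted p-values of edgeR were under 0.05 for 0. The fitted values were -1.68 for Cd8a and -1.82 for Cd8b1, on 19 and 12 reads in the 3 old libraries together. In transgenic cells 1 of 4 passed, against 7.82% of all genes: Cd4 fell (-2.28 ± 0.65, adjusted p = 0.0364), a call lost without any 1 of the 6 libraries compared (-2.50 to -2.08). It was also lost with the library letter as covariate (-1.95, adjusted p = 0.17) and without the libraries rich in the unnamed feature (-2.52, adjusted p = 0.0535). Cd8a moved by 0.09, Cd8b1 by -0.64 and Runx3 by 0.71 (adjusted p = 0.0533). The effect of the transgene differed between the ages for 0 of 4 members with edgeR, against 3.05% of all genes. DESeq2 and limma voom called 0, and 1 unadjusted p of edgeR was under 0.05.

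The balance of both CD8 chains was read within each library as the ratio of Cd8a to Cd8b1 reads per base of counted length. Transgenic young DN3a libraries stood at 0.631, 0.790 and 0.929, so Cd8b1 was the more abundant per length. Transgenic old DN3a libraries stood at 1.05, 1.53 and 2.32. Their ranges did not overlap, a log2 difference of 1.01 (exact two-sided permutation p = 0.1, the smallest that 3 against 3 libraries allow, 0.3 adjusted over 3 comparisons). Within the old group the lowest ratio belongs to replicate 1, of 6 weeks and library letter a, and the others to mice of 10 weeks and letter b. All transgenic young DN3a libraries carry letter a, so age and letter cannot be told apart here.

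Transgenic and wild-type ratios overlapped in DN3a at each age (exact permutation p = 0.6 in young and 0.8 in old, both 0.8 adjusted). The wild-type DN2 libraries differed from each other. Replicate 1 held 86 Cd8a and 11 Cd8b1 reads, a ratio of 3.54 (95% interval 1.88 to 7.35), and replicate 2 held 22 and 26 reads, a ratio of 0.383 (0.207 to 0.702). These exact Clopper-Pearson intervals cover counting error only, and they do not meet. Replicate 1 is the library with reads in the fewest genes, and its Cd4 level was also the highest of all libraries.

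**Figure D4:**
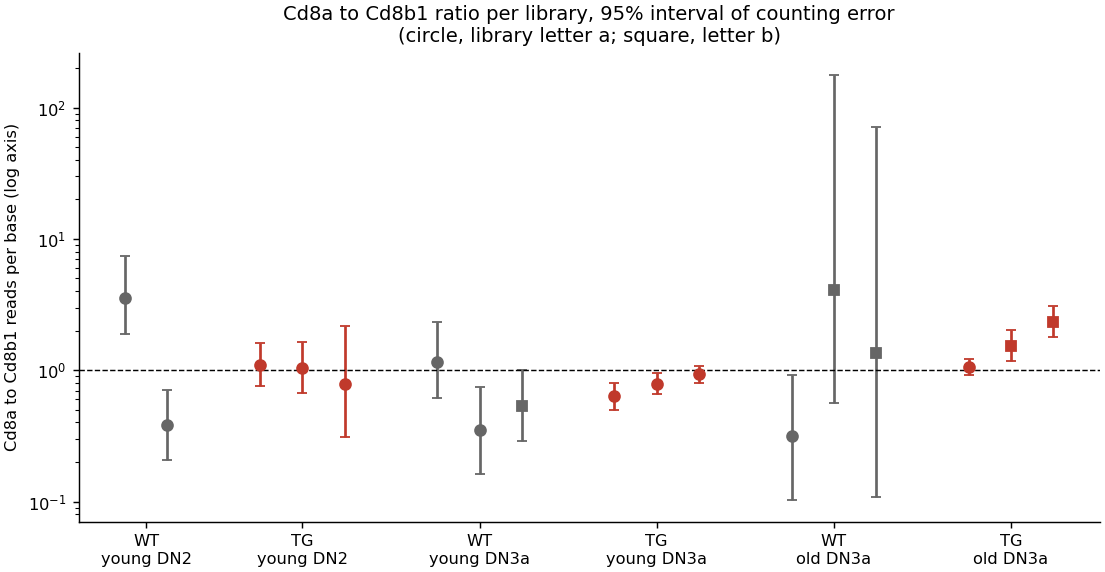
Ratio of Cd8a to Cd8b1 reads per base in each library on a log axis, with 95% intervals of counting error. Circles are libraries of letter a and squares of letter b, grey for wild-type and red for Lmo2-transgenic. Transgenic young DN3a libraries lie at 0.631 to 0.929 and transgenic old ones at 1.05 to 2.32, and the intervals of wild-type old libraries are very wide.

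The sequence before the start of Cd8a is shown because this gene had the largest difference of the members between genotypes in DN3a, at both ages. It covers the 250 bases at chr6:71373177-71373426, plus strand, from RefSeq on GRCm38.p6. For Runx3 the matching window of its upstream start is shown, chr4:135120395-135120644, plus strand, since the gene rose in all 3 transgenic settings. Capitals mark matches to CANNTG, the E-box bound by the basic helix-loop-helix partners of LMO2, to ACCACA, bound by RUNX proteins, and to GATAA, bound by GATA factors, on either strand.
Cd8a: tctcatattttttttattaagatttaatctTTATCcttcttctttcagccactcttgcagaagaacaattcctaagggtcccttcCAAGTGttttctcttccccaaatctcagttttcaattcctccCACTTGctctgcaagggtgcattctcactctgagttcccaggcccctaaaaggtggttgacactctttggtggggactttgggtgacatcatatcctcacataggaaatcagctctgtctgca
Runx3: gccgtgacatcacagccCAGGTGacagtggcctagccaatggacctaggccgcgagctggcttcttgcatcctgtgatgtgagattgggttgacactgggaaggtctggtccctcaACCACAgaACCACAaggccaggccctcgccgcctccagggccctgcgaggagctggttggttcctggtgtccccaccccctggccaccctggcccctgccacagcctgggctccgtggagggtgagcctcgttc
The Cd8a window holds 2 E-boxes and 1 GATAA match on the minus strand, and no ACCACA. The Runx3 window holds 1 E-box and 2 ACCACA matches and no GATAA. A second Runx3 window, before its internal start, holds none of the 3 motifs and is not printed. Windows of Zbtb7b, the member at the edge of detection, are not printed either. The one starting at position 89387672 holds 1 E-box and 1 ACCACA match, and the one at 89393379 holds 2 E-boxes. Windows of Cd8b1 and Cd4 were not used here. None of the matches overlap. Of 32851 RefSeq promoter windows of this length, 66.2% hold CANNTG, 14.0% ACCACA and 22.6% GATAA. The matches are letters only, and no binding was measured.

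Cd4, the helper coreceptor, was low in every library and lowest in transgenic old DN3a. Wild-type old DN3a libraries held 40, 47 and 27 Cd4 reads, or 4.78, 5.12 and 3.19 CPM. Transgenic old DN3a libraries held 7, 7 and 5 reads, or 0.733, 0.648 and 0.506 CPM, with no overlap. In young DN3a, wild-type libraries stood at 5.32, 5.42 and 2.86 CPM and transgenic ones at 1.56, 3.31 and 3.87 CPM, which overlap. Wild-type DN2 held 112 reads in replicate 1 and 15 in replicate 2, or 9.86 and 1.54 CPM. Transgenic DN2 stood at 0.696, 2.09 and 0.964 CPM, overlapping wild-type through replicate 2. By mean the order was wild-type DN2 (5.70 ± 5.88 CPM), wild-type young DN3a (4.53 ± 1.45), wild-type old DN3a (4.37 ± 1.03), transgenic young DN3a (2.91 ± 1.204), transgenic DN2 (1.25 ± 0.739) and transgenic old DN3a (0.629 ± 0.115). Each pair of neighbours in this order had overlapping ranges. Per length Cd4 stood above 18.1% of tested genes in wild-type old and 7.72% in transgenic old DN3a.

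Per length, wild-type DN3a cells of old mice held more Cd4 than Cd8a (1.41 ± 0.333 against 0.231 ± 0.105 RPKM), without overlap. Transgenic old DN3a cells held the reverse, 0.203 ± 0.0370 RPKM of Cd4 against 14.1 ± 8.98 RPKM of Cd8a.

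Runx3 was the most abundant member per length in every library. Transgenic DN2 libraries stood at 154, 167 and 165 CPM, and wild-type DN2 at 58.1 and 73.1 CPM. Transgenic old DN3a libraries stood at 108, 152 and 129.96 CPM against 43.7, 52.1 and 85.3 CPM in wild-type, with no overlap. Young DN3a overlapped, with 55.1, 83.5 and 84.2 CPM in transgenic and 39.5, 42.4 and 62.1 CPM in wild-type. The means ran from transgenic DN2 (162 ± 7.21 CPM) through transgenic old DN3a (129.8 ± 22.2) and transgenic young DN3a (74.3 ± 16.6) to wild-type DN2 (65.6 ± 10.6), old DN3a (60.4 ± 21.95) and young DN3a (48.0 ± 12.3). Ranges parted at the first 2 steps of this order and overlapped at the others. Runx3 was thus highest in the transgenic group where Cd8a and Cd8b1 were lowest, DN2. Per length it stood above 86.3% of tested genes there.

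Zbtb7b was at the edge of detection. It had 16 reads over all 17 libraries, no more than 5 in any, and 0 in 9 of them. Wild-type DN2 and transgenic old DN3a had no read, which allows up to 0.142 and 0.0992 CPM by a limit of 3 reads over the group (counting error only). In other groups the highest library stood at 0.118 to 0.651 CPM. A difference between genotypes was not detectable at this depth.

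The nearest named genes on each side of the members were read in the same fits. Around the CD8 pair, Krcc1 and Rmnd5a moved by no more than 0.34 in any of the 3 genotype comparisons and did not pass. Rnf103, farther to the right, fell in old DN3a (-0.85 ± 0.21, adjusted p = 0.00401). Smyd1 was too low to be tested. Around Cd4 all 4 neighbours were lower in transgenic DN3a of old mice, where 15.7% of all genes were called lower. Ptms stood at 1.59 ± 0.242 CPM against 36.5 ± 14.8 in wild-type (-4.49 ± 0.34, adjusted p = 2.05e-08), and Gpr162 at 0.297 ± 0.171 against 4.30 ± 2.51 (-3.82 ± 0.65, adjusted p = 0.000212).

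Lag3, a checkpoint gene related to Cd4 in sequence, had 1 read in transgenic and 154 in wild-type old DN3a, a 179-fold ratio (95% counting interval 31.7 to 7119). P3h3 had 2 and 70 reads, a 40.7-fold ratio (10.9 to 343). In young DN3a Lag3 (-2.47 ± 0.49), Ptms (-2.11 ± 0.29) and P3h3 (-3.06 ± 0.77) fell too, while Gpr162 moved by -1.34 (adjusted p = 0.134). In DN2 Lag3 rose (1.40 ± 0.47) and Ptms (-1.42 ± 0.30) and P3h3 (-2.32 ± 0.74) fell. Around Runx3, of Rsrp1, Syf2, Clic4 and Srrm1 only Rsrp1 passed in a genotype comparison, in old DN3a (-1.35 ± 0.43, adjusted p = 0.0263). Of the neighbours of Zbtb7b, Flad1 rose in DN2 (0.84 ± 0.28, adjusted p = 0.0331), Lenep did not pass, and Dcst1 and Dcst2 were too low to be tested.

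**Figure D5:**
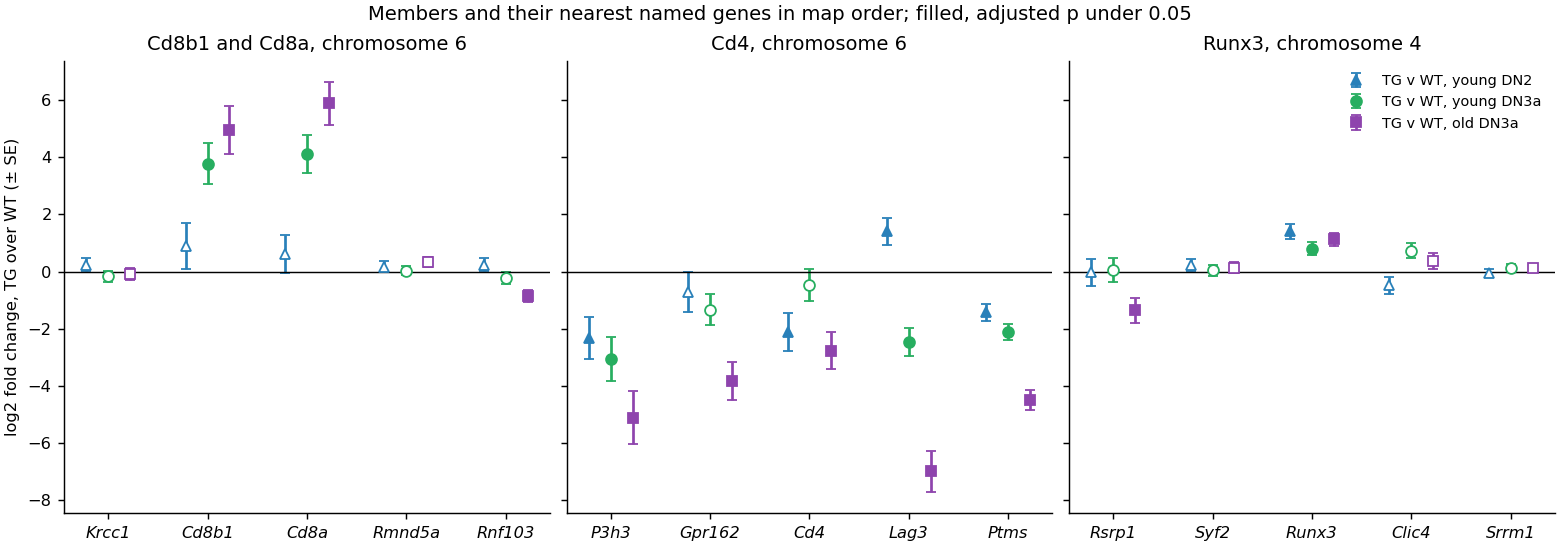
Log2 fold changes of transgenic over wild-type cells, with standard errors, for members and their nearest named genes in map order. Filled symbols have an adjusted p under 0.05. Krcc1 and Rmnd5a stay near 0 beside Cd8b1 and Cd8a, while P3h3, Gpr162, Cd4, Lag3 and Ptms all lie below 0 in old DN3a. The fitted values of Lag3 and P3h3 in old DN3a rest on 1 and 2 transgenic reads.

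The genes most like each member were ranked by Pearson's r of log2 CPM over the 17 libraries among 11323 genes, a description in which groups, mice and depth are shared. Most like Cd8a were Gimap4 (r = 0.96), Amigo2 (0.96), Gimap8 (0.94), the adhesion gene Cd2 (0.93) and Nptn (0.92). Cd8b1 itself had r = 0.92. Most like Cd8b1 were Gimap8 (0.93), the apoptosis gene Bid (0.92) and Hunk (0.90). Gimap4 and Gimap8 encode GTPases of lymphocytes. Gimap8 averaged 81.6 CPM in transgenic and 12.4 CPM in wild-type old DN3a.

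Most like Runx3 were Bpifc (r = 0.97), the growth factor gene Tgfb1 (0.96) and Rasa3 (0.95), all highest in transgenic DN2. Most like Cd4 were Tmem18 (0.85), Pde8b (0.85) and Pla2g4b (0.84). Between members, Runx3 had r = 0.43 with Cd8a, 0.33 with Cd8b1 and -0.74 with Cd4. Cd4 had r = -0.42 with both CD8 genes.

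Of 24 other regulators of the Cd4 and Cd8 loci, all tested, 7 rose and 5 fell in transgenic old DN3a, 1 rose and 2 fell in young DN3a, and 3 rose and 4 fell in DN2. Over all genes 30.6, 9.86 and 25.3% were called in these comparisons. The list's medians were 0.09, -0.14 and -0.003, beside -0.04, 0.02 and 0.03 over all genes. Ikzf3, which encodes the Ikaros-family factor Aiolos, rose in old (3.40 ± 0.40) and young DN3a (2.58 ± 0.39). Smarca4, the ATPase of the BAF remodelling complex, fell in old DN3a (-1.33 ± 0.18), young DN3a (-1.19 ± 0.18) and DN2 (-1.17 ± 0.20). Bcl11b, a T cell commitment factor, fell in old DN3a (-1.06 ± 0.17), as did Socs1 (-1.32 ± 0.32), an inhibitor of cytokine signalling.

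In DN2 the regulators that rose were Bcl6 (4.07 ± 0.44), Runx2 (1.75 ± 0.34) and Tox (1.40 ± 0.25), a factor needed for the CD4 lineage. Ets1 fell there (-1.18 ± 0.23). Runx1, the RUNX factor that represses Cd4 in double-negative cells, moved by 0.17, -0.27 and -0.11 in DN2, young DN3a and old DN3a and did not pass. Its partner Cbfb rose in old DN3a (0.85 ± 0.18, adjusted p = 0.00162).

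Of 15 genes that act with the coreceptors in signalling, 6 rose and 5 fell in old DN3a, 3 rose and 1 fell in young DN3a, and 4 rose and 7 fell in DN2, with medians of -0.06, 0.01 and -0.55. The same shares (30.6, 9.86 and 25.3%) and medians (-0.04, 0.02 and 0.03) over all genes stand beside them. Lck, the kinase that both coreceptors bind, fell in old (-0.76 ± 0.19, adjusted p = 0.00412) and young DN3a (-0.65 ± 0.19, adjusted p = 0.0308) and moved by -0.55 in DN2 (adjusted p = 0.0563). Zap70, the kinase next in line, rose in old (2.04 ± 0.19) and young DN3a (1.75 ± 0.19) and fell in DN2 (-0.62 ± 0.21). The surface regulators Cd5 (2.47 ± 0.20 in old DN3a) and Cd6 (2.10 ± 0.15) rose in all 3 settings. Cd3g fell in old DN3a (-2.18 ± 0.28) and DN2 (-4.22 ± 0.32).

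Transcripts of cells that carry CD4 or CD8, and of other cells, were summed per library. Counts of called markers stand beside 30.6% of all genes called in old DN3a, 9.86% in young DN3a and 25.3% in DN2. The 7 double positive markers summed to 949 to 977 CPM in transgenic and 1270.5 to 1424 CPM in wild-type young DN3a, and to 1145 to 1289 against 1438 to 1491 CPM in old DN3a. In old DN3a 2 of the 7 rose, Slamf1 (2.66 ± 0.27) and Cd5, also counted above, and 3 fell. In young DN3a 2 rose and 1 fell, and in DN2 2 rose and 2 fell. The 6 markers of mature T cells summed to 1101 to 1632 CPM in transgenic and 496 to 847 CPM in wild-type old DN3a, to 769.7 to 1058 against 409.6 to 732 in young DN3a, and to 1383 to 1608 against 953 to 1178 in DN2. In each of the 3 settings 3 of 6 rose, Itgb7 (5.26 ± 0.34 in old DN3a) and Klf2 (2.69 ± 0.46) among them. In DN2 1 fell, Ms4a4b (-0.93 ± 0.27).

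The 11 cytotoxic T cell markers summed to 213 to 318 CPM in transgenic and 124 to 179.96 CPM in wild-type old DN3a, to 251 to 412 against 246 to 281 in young DN3a, and to 183 to 305 against 283 to 312 in DN2. Of the 6 tested, 1 rose and 1 fell at each DN3a age, and 3 rose and 2 fell in DN2. Gzma, at 59.4 to 366 CPM in DN3a, rose in old DN3a (1.41 ± 0.33) but fell in DN2 (-3.11 ± 0.37), while Gzmb went from 0 reads in wild-type to 913 in transgenic DN2. As Gzmb held no more than 8 reads in any other group, its comparison in DN2 rests on the group where it is high. Gzmk was at 0 in all 4 DN3a groups and Eomes and Klrd1 in both genotypes of old DN3a. Gzmb was at 0 in wild-type DN3a of both ages and Ccl5 in transgenic DN3a of both ages. The 7 natural killer and innate lymphoid markers summed to no more than 0.613 CPM in any DN3a library but 5.85 to 11.2 CPM in transgenic DN2. Of these 7, 2 were tested, Il18r1 and Zbtb16, and they passed the filter on reads only through transgenic DN2. Il18r1 held 59 reads in transgenic and 0 in wild-type DN2, and Zbtb16 held 126 and 4. Both were called higher there, a direction that the filter had set in advance. Ncr1 was at 0 in all 6 groups. The 12 dendritic cell markers summed to 102 to 125 CPM in transgenic and 149.97 to 166 CPM in wild-type old DN3a, with Batf3 and Siglech at 0 in both. The 5 gamma delta T cell markers summed to 227 to 393 CPM in transgenic and 99.3 to 145 CPM in wild-type old DN3a, where 2 rose and 2 fell. In young DN3a the sums were 238 to 485 against 165 to 195 CPM, with 1 higher and 2 lower, and in DN2 118 to 169 against 222 to 224 CPM, with 0 of 5 called by edgeR and 1 at an unadjusted p under 0.05. The 6 markers of helper and regulatory CD4 T cells, whose mature cells express Cd4, summed to 7.79 to 38.1 CPM in transgenic and 131 to 308 CPM in wild-type old DN3a. Of the 4 tested, 2 fell there, Ctla4 and Foxp3, and 0 rose. Ctla4 made up most of the sum, with 427 reads in transgenic and 4786 in wild-type old DN3a, while Foxp3 held only 4 and 26. The wild-type sum of 308 CPM came from replicate 2, and replicates 1 and 3 stood at 133 and 131 CPM. In young DN3a the sums were 71.0 to 79.97 against 94.1 to 127 CPM with 0 of 4 called by edgeR and 0 at an unadjusted p under 0.05. In DN2 they were 13.2 to 24.1 against 81.0 to 99.8 CPM, with 1 lower.

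The 7 markers of beta-selected thymocytes summed to 780.1 to 951 CPM in transgenic and 659 to 915 CPM in wild-type old DN3a, with 0 of 6 tested higher and 1 lower. In young DN3a the sums were 972 to 1235 and 699.7 to 831 CPM, and 2 rose. In DN2 they were 529.98 to 667 and 1120 to 1121 CPM, and 4 fell. The 7 macrophage and myeloid markers summed to 3.15 to 6.13 CPM in transgenic DN3a and 18.0 to 36.5 CPM in wild-type DN3a, but to 115 CPM or more in transgenic DN2. Of the 3 tested, 2 rose in DN2, and 1 fell at each DN3a age. The 6 B cell markers summed to 21.8 to 87.9 CPM over all libraries, with Ms4a1 at 0 in each group. The 5 thymic epithelium markers summed to 2.77 to 153 CPM, with Foxn1 at 0 in each group, and the 4 erythroid markers to no more than 6.66 CPM. The part of such cells in the coreceptor levels was not tested.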

How the data were processed

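The authors deposited raw read counts per gene for 17 libraries. The submitters' processing notes name featureCounts and mm10. Per the labels' protocols, TruSeq libraries were sequenced as single-end reads. Aligner, annotation and strand were not given in the sources used here. The 17 single-library files equalled the combined table. Identifiers were named from RefSeq (25275) and GENCODE (18), while 1886 had no name and took 0.947 to 19.8% of reads.

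CPM are counts over all counted reads, and RPKM divides by the counted length. Counts were scaled by TMM, filtered (minimum count 10, total 15; 13534 genes) and fitted with edgeR 4.0.16 in R 4.3.3 by quasi-likelihood with robust estimation over all 17 libraries, 1 mean per group, with 9 contrasts and Benjamini-Hochberg adjustment at 0.05. SE is the log2 fold change over the square root of F. Log2 CPM for likeness used a prior count of 2. Exact tests used scipy 1.17.1. The procedure was run on simulated counts, with changes planted only in the genotype comparisons and in genes above a floor of mean reads. This run does not cover genes with few reads or the stage, age and interaction contrasts, and its outcome is not reported here. Libraries of a group differed by 12.9 to 158 times counting noise (chi-square per degree of freedom).

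Members and gene lists were chosen with earlier results of these data known. Named are the members, up to 5 genes most like each (mean of at least 1 CPM, without predicted genes or receptor segments), the nearest 2 named genes on each side, and up to 4 called genes per list and genotype comparison. Runx1, Cbfb, Lck and Zap70 were also named in every genotype comparison, after their values were seen. DN2 and DN3a libraries share mice by label, and the deviations of the same mouse correlated at -0.07 to 0.19. The mouse was used as a block only as an alternative. Other alternatives were DESeq2 1.42.0, limma 3.58.1 voom, RLE factors, no filter, only the groups compared, a replicate block, sex, library letter or unnamed feature as covariate, left-out libraries, and other scalings of CPM. The fit without robust estimation was added after seeing the data.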

Additional observations from a re-analysis of the deposited data

Results flagged for a closer look

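The step from DN2 to DN3a differed between the genotypes for Cd8a by the interaction term of edgeR's fit, at 3.50 ± 0.91 on the log2 scale (adjusted p = 0.0136 over 13534 genes). Cd8a was higher in DN3a than in DN2 in 3 of 3 transgenic mice and lower in 2 of 2 wild-type mice that gave both libraries. Over the alternatives the value ran from 2.31 to 4.11, and the adjusted p from 0.000577 to 0.183. The call was lost in 2 of 30 alternatives, without wild-type DN2 replicate 1 (2.31) and without the libraries rich in the unnamed feature (3.36, adjusted p = 0.0636).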

How the results depend on the processing

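Of 14 called differences of the members, 7 kept direction and call under every alternative: Runx3 in DN2, Cd8a and Cd8b1 in young DN3a, and all 4 members in old DN3a, each transgenic against wild-type. Leaving out each library in turn, Cd8a ran from 3.86 to 4.43 in young and 5.30 to 6.21 in old DN3a. A fit that leaves 1 wild-type DN2 library assumes it to vary like the other groups. The number of members called in transgenic against wild-type DN2 went from 2 to 1 under limma voom, with only the groups compared, with the replicate block, with the unnamed feature as covariate and without the libraries rich in it, and was 1 to 2 with a library left out. From DN2 to DN3a in wild-type it went from 0 to 1 under the replicate block and with the letter as covariate. In transgenic mice this step went from 3 to 0 without the rich libraries. For age in transgenic DN3a it went from 1 to 2 with no filter, DESeq2, limma voom, only the groups compared and the replicate block, to 0 with the letter as covariate and without the rich libraries, and ran from 0 to 2 with a library left out. The genotype difference in the stage step went from 1 to 2 with only the groups compared and the mouse block, to 0 without the rich libraries, and ran from 0 to 2 with a library left out.

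Signs turned only in differences that had not been called. In wild-type DN3a against DN2, Cd8b1 (-0.10) became 0.11 with the replicate block, 0.48 with the letter and 0.71 without males, and Cd4 (-0.43) became 0.17 under limma voom and 0.30 with the mouse block. With a library left out, Cd8a there ran from -1.70 to 0.0791, Cd8b1 from -0.64 to 0.76 and Cd4 from -1.21 to 1.498. In old against young wild-type DN3a, Cd4 (0.02) became -0.38 under limma voom, -0.31 with sex and -0.12 without the rich libraries, and ran from -0.23 to 0.22. In old against young transgenic DN3a, Cd8a (0.09) became -0.12 under limma voom and without males, -0.11 with the replicate block, with the unnamed feature as covariate and without the rich libraries, and -0.35 with sex, and ran from -0.49 to 0.42. The genotype difference in the stage step of Cd4 (1.63) ran from -0.31 to 2.42, and that in the age step of Runx3 (0.33) became -0.0581 under limma voom. The causes were not tested. Replicate numbers pair no mice in the transgenic groups, and same-numbered deviations correlated at -0.28 to 0.34. Depth limits Zbtb7b, with 16 reads in all, and Cd8a and Cd8b1 in wild-type old DN3a, with 19 and 12.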
